A study of Sus scrofa with 12 samples.

Results

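TNFRSF11B and DBH are 2 of the 24358 genes measured in pig induced pluripotent stem cells. They were picked by symbol because the level of both was higher after Activin A than after SB431542, so that contrast is described here and not tested. RNA-seq was made from 12 libraries in 4 groups of 3, and the values are FPKM, reads scaled to the length of the gene and the size of the library. PC-iPS cells are induced pluripotent stem cells made from pig pericytes. WT PC-iPS were the unedited cells, and the Nanog knock-in reporter PC-iPS (knock-in) carried FLAG, tdTomato and a puromycin cassette at NANOG. The last groups were labelled with Activin A and SB431542, and the methods describe these treatments in knock-in cells.

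The knock-in lines came from independent transfections. They were selected with puromycin and sorted for tdTomato, and they are mixed populations in which single cells may carry the insertion at different alleles or not at all. The labels give LCDMV medium for every library, whereas the methods describe cytokine treatment in T1 medium, which is LCDMV without LIF. Against the untreated knock-in, medium and treatment cannot be told apart, and the dose given to the sequenced cells is not given in the sources used here. The paper ran its cytokine screen without feeder cells and its BMP4 cultures with them. Whether the sequenced cells of each group grew on feeders is not stated, so a difference in feeders cannot be told apart from treatment either. Feeder cells were removed by letting them attach before the suspended cells were collected. Nothing in the labels says that the WT libraries were separate cultures, so p-values measure the spread between these samples, which may be technical.

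TNFRSF11B encodes osteoprotegerin, a secreted member of the TNF receptor family. It has no membrane anchor and acts as a decoy that binds RANKL (TNFSF11) and TRAIL (TNFSF10) and keeps them from their signaling receptors, and it is best known for restraining the formation of bone-resorbing osteoclasts. DBH, dopamine beta-hydroxylase, is a copper- and ascorbate-dependent enzyme that turns dopamine into noradrenaline inside the secretory vesicles of noradrenergic neurons and adrenal chromaffin cells. Activin A signals through type I receptors to SMAD2 and SMAD3, and SB431542 blocks those receptors.

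In the Sscrofa11.1 RefSeq annotation, TNFRSF11B (ENSSSCG00000027762) spans chr4:19850212-19879132, a gene of 28921 bp. It lies within the span of COLEC10, chr4:19692990-20143740. Whether counting used strand is not given in the sources used here, so reads of overlapping genes may be shared, and COLEC10 itself was listed at 0.0303 to 0.198 FPKM over the 12 libraries. DBH (ENSSSCG00000005742) spans chr1:273204407-273225562, a gene of 21156 bp that overlaps neither of its neighbours, FAM163B and SARDH.

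The labelled cell type was checked against 8 markers of pluripotent cells. SOX2 (39.1 to 71.5 FPKM), SALL4 (10.1 to 18.3 FPKM) and LIN28A (32.8 to 498 FPKM) were present in all 12 libraries, ZFP42 was at 0 in all 12 and TDGF1 at 0 in 9, and POU5F1 and DPPA4 had no row under their symbols. FPKM summed to 364241 to 390320 per library, and 15339 to 15827 genes were above 0. Absolute depth is unknown, and relative depth, with knock-in library 1 set to 1, was 0.565 to 0.633 in WT against 0.731 to 1 in the other groups. Libraries of the knock-in, Activin A and SB431542 groups that share a number deviated together from their group means, so the numbers are read here as lines 1, 2 and 3. WT libraries did not pair with them, and their numbers are names only.

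TNFRSF11B was a low-level transcript that stood highest after Activin A. It measured 3.77, 2.67 and 5.90 FPKM in lines 1, 2 and 3 with Activin A, against 0.186, 0.126 and 0.283 FPKM with SB431542. The lowest Activin A library was above the highest SB431542 library, as for 9.19% of 13999 genes in that table. The group means were 4.11 ± 1.64 and 0.198 ± 0.0795 FPKM (SD, n = 3), a ratio of 20.8. In the untreated knock-in lines it measured 0.792, 0.352 and 1.13 FPKM (0.757 ± 0.389, SD, n = 3). In WT cells it measured 0.259, 0.453 and 1.22 FPKM (0.645 ± 0.509, SD, n = 3). The untreated knock-in values lay between those of the treatments. WT overlapped the knock-in lines, and WT library 1 lay within the SB431542 range.

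The 3 lines gave nearly the same ratio of Activin A to SB431542 for TNFRSF11B although their levels differed. The ratio was 20.3 in line 1, 21.3 in line 2 and 20.8 in line 3. It rests on SB431542 values of 0.126 to 0.283 FPKM, for which no counting error can be given. Line 3 was highest and line 2 lowest in the untreated, the Activin A and the SB431542 libraries alike, an order shared by 880 of 13696 genes that passed the filter on low values in both tables (6.43%). Any single order of the lines, kept in all 3 conditions, held for 2576 of these genes (18.8%). In the bulk RNA of a culture, fewer cells with a transcript and less transcript per cell cannot be told apart.

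DBH was the more abundant transcript in the knock-in lines, and its SB431542 values were nearly level. With Activin A it measured 23.6, 27.2 and 9.60 FPKM in lines 1, 2 and 3 (20.1 ± 9.29, SD, n = 3). With SB431542 it measured 2.00, 2.09 and 2.48 FPKM (2.19 ± 0.257, SD, n = 3). All Activin A libraries stood above all SB431542 libraries, and the ratio of the means was 9.21. The untreated lines measured 8.07, 11.2 and 4.18 FPKM (7.81 ± 3.51, SD, n = 3), all above the SB431542 libraries and overlapping the Activin A libraries. The WT libraries measured 0.186, 0.257 and 2.82 FPKM (1.09 ± 1.5, SD, n = 3). WT library 3 held 15.2 times as much as the lowest WT library and was the only WT library above the SB431542 range.

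The lines differed far more for DBH than for TNFRSF11B in the ratio of Activin A to SB431542. The ratio of Activin A to SB431542 was 11.8 in line 1, 13.0 in line 2 and 3.87 in line 3. Line 3 was the lowest of the lines without treatment and with Activin A, but the highest with SB431542. This difference between lines has 1 library per line and treatment and was not tested. For Activin A over untreated the lines spread more for TNFRSF11B (4.75 to 7.59) than for DBH (2.30 to 2.93).

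**Figure D1:**
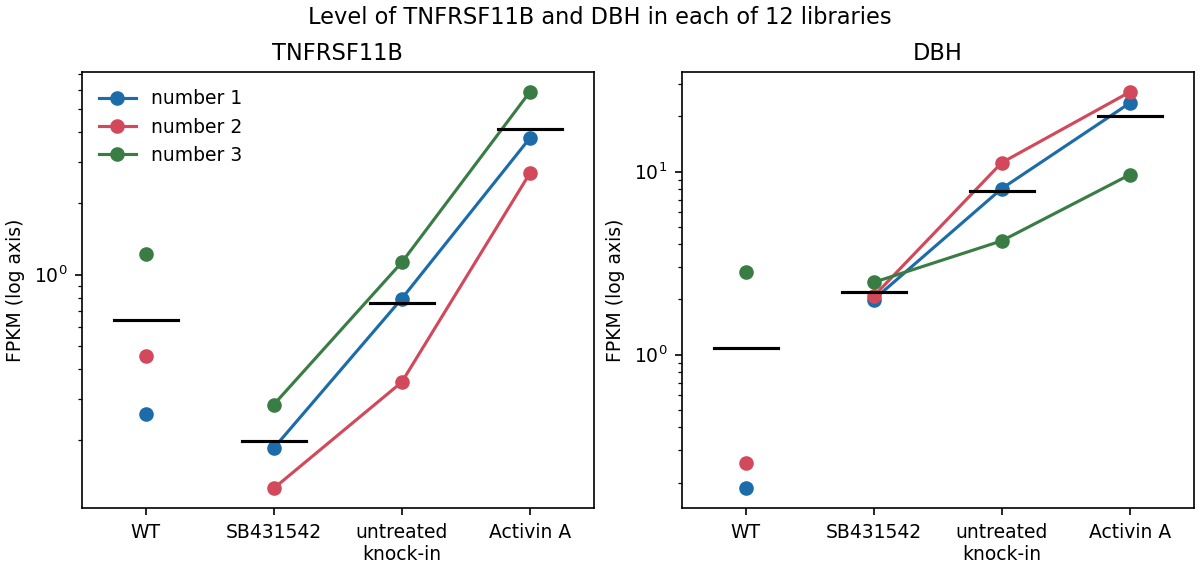
FPKM on a log axis of TNFRSF11B (left) and DBH (right) in each of the 12 libraries, by group; points joined by a line share a number across the knock-in, Activin A and SB431542 groups, and WT points are unpaired. TNFRSF11B lines lie nearly as far apart with Activin A as with SB431542, whereas the DBH lines meet at 2.00 to 2.48 FPKM with SB431542.

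By rank among the detected genes, DBH moved from the lower part to the upper. In the Activin A libraries 82.5%, 85.1% and 62.6% of detected genes lay below it in lines 1, 2 and 3. In the untreated lines the shares were 59%, 66% and 44.8%, and with SB431542 they were 35.7%, 35.8% and 37.7%. WT libraries 1, 2 and 3 gave 14.4%, 16.4% and 37.9%. TNFRSF11B stood below DBH except in WT libraries 1 and 2, with 39.2% to 51.9% of detected genes below it after Activin A and 12.6% to 19.3% after SB431542. In WT libraries 1 and 2 the shares below TNFRSF11B were 16.9% and 20.8%.

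The ratio of the members to each other was therefore not fixed. FPKM of DBH was 6.28, 10.2 and 1.63 times that of TNFRSF11B in lines 1, 2 and 3 with Activin A, and 10.2, 31.7 and 3.71 times without treatment. In WT libraries 1 and 2 DBH was the lower of the pair, at 0.717 and 0.567 times TNFRSF11B, and in WT library 3 it was 2.31 times. Line 3 gave the lowest ratio of the lines in each of the 3 conditions.

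The question set by the design is how each treatment sits against the untreated knock-in. These libraries are in separate tables that may have been normalized separately, so the following values are descriptions without a test. Differences are given on the log2(FPKM + 1) scale, which understates the change of low genes. TNFRSF11B with Activin A lay above untreated by 1.41, 1.44 and 1.70 in lines 1, 2 and 3, with a mean of 1.52. In FPKM these were ratios of 4.75, 7.59 and 5.23. With SB431542 it lay below untreated in every line, by -0.60, -0.26 and -0.73. Both treatments thus stood on opposite sides of the untreated level in all 3 lines.

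DBH showed the same order with a different balance. With Activin A it lay above untreated by 1.44, 1.21 and 1.03 in lines 1, 2 and 3, which is 2.93, 2.43 and 2.30 times in FPKM. With SB431542 it differed from untreated by -1.60, -1.98 and -0.57. The mean distance was thus larger on the SB431542 side (-1.38) than on the Activin A side (1.23) for DBH, and smaller for TNFRSF11B (-0.53 against 1.52). The balance for DBH rested on line 2, since without it the distances were -1.09 and 1.24. With a pseudocount of 0.1 the mean distances of TNFRSF11B were -1.44 and 2.34, in the same order.

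**Figure D2:**
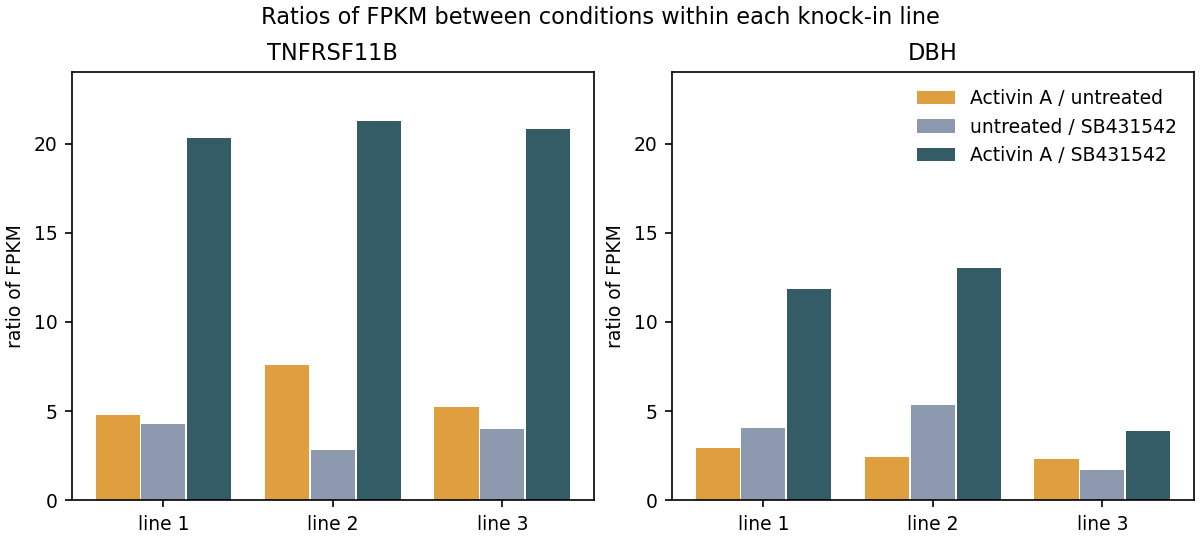
Ratio of FPKM within each knock-in line for TNFRSF11B (left) and DBH (right); bars give Activin A over SB431542, Activin A over untreated and untreated over SB431542, each from 1 library per condition and without error bars. Activin A over SB431542 is 20.3 to 21.3 for TNFRSF11B in all lines and is 3.87 for DBH in line 3.

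How usual this placing was can be read from the other genes. SB431542 below untreated below Activin A in all 3 lines held for 769 of 13696 genes (5.61%), and the reverse order for 704 (5.14%). Activin A above SB431542 in all lines held for 23.8%, and by at least 1 log2 unit for 0.329%, among them both members. The members were picked on this contrast, so their place in these shares restates the choice. The shares and ranks against untreated that follow use the same treated libraries. The place of the members there also follows in part from the choice and is no added support. A distance of at least 1 log2 unit above untreated with Activin A in all lines held for 19 genes (0.139%), both members among them. With the distance measured in its least line, TNFRSF11B (1.41) was the third of these genes and DBH (1.03) stood near the limit, where CCN2 (1.00) was just inside and NANOG (0.94) just outside. The opposite, at least 1 log2 unit below untreated with Activin A in all lines, held for 2 genes (0.0146%). By mean distance above untreated, 6 genes exceeded TNFRSF11B and 18 exceeded DBH. By mean distance below untreated with SB431542, 5 genes exceeded DBH and 146 exceeded TNFRSF11B. SB431542 at least 1 log2 unit below untreated in all lines held for 7 genes (0.0511%), and neither member was among them.

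**Figure D3:**
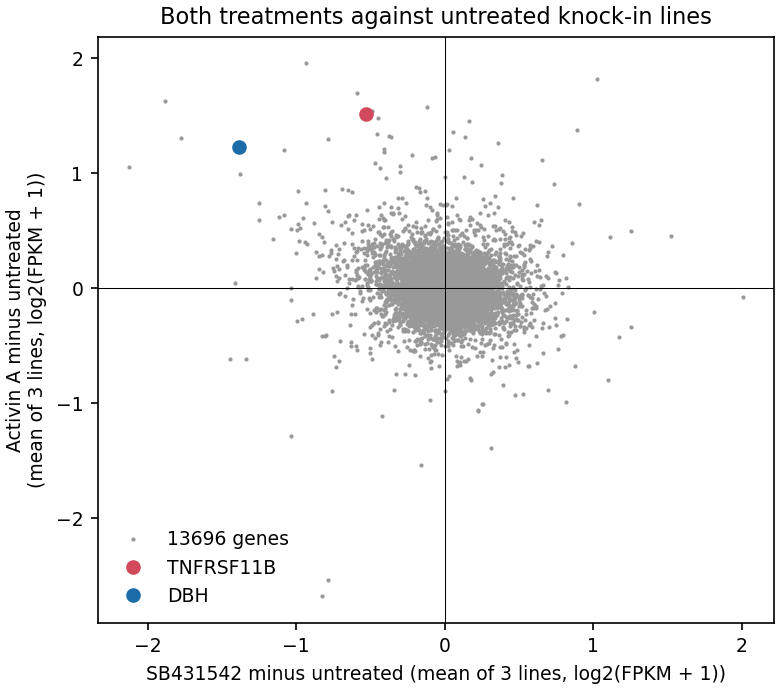
Mean difference over 3 lines on the log2(FPKM + 1) scale of SB431542 minus untreated (horizontal) and Activin A minus untreated (vertical) for 13696 genes (grey points), with both members marked. TNFRSF11B sits at -0.53 and 1.52 and DBH at -1.38 and 1.23, both in the upper left with negative horizontal and positive vertical values.

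The comparison of untreated knock-in with WT was not used to pick the members and was tested. The knock-in lines differ from WT in the insertion, drug selection and the tdTomato sort, which cannot be told apart. DBH rose in the knock-in lines, by 2.22 on the log2(FPKM + 1) scale (SE 0.50, 95% interval 1.06 to 3.37, limma, Benjamini-Hochberg adjusted p = 0.0411). The mean FPKM was 7.17 times that of WT, and the lowest knock-in library (4.18 FPKM) was above the highest WT library (2.82 FPKM). That ratio depends on WT library 3, since WT libraries 1 and 2 held 0.186 and 0.257 FPKM. Without WT library 3 the ratio would be far larger. Of 14014 genes tested, 225 (1.61%) were called higher in knock-in at an adjusted p of at most 0.05 and a difference of at least 1 log2 unit, and 99 (0.706%) lower. All knock-in libraries were above all WT libraries for 19.0% of the genes. An exact two-sided permutation test gave p = 0.1 for DBH, the smallest that 3 against 3 libraries allow.

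The DBH call rested on most of the libraries. It was lost without knock-in library 1 (adjusted p = 0.131), without knock-in library 2 (0.128), without WT library 1 (0.115) or without WT library 2 (0.102), all from limma. Without WT library 3, the WT library with the highest DBH, the difference was 2.77 (limma, adjusted p = 0.0146), and without knock-in library 3 the adjusted p was 0.0486. The direction held in every one of these 6 fits, with differences of 1.92 to 2.77. The call was also lost with a pseudocount of 0.1 or 0.01 (limma, adjusted p = 0.0501 and 0.0573) and without the filter on low values (0.0831).

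TNFRSF11B did not pass the test in this comparison. Its difference was 0.11 (SE 0.25, 95% interval -0.46 to 0.69, limma, adjusted p = 0.79), and an exact two-sided permutation test gave p = 0.8. The interval allows up to 0.69 log2 units in favour of the knock-in. Leaving out knock-in library 3 or WT library 1 turned the sign, to -0.036 and -0.057.

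WT library 3 had the highest FPKM of the WT group for both members. It was also the highest WT library for NANOG, at 27.6 FPKM against 9.71 and 16.4 FPKM. WT library 3 was the highest of the WT libraries for 37.2% of 13696 genes.

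The ligands that osteoprotegerin binds and the signaling receptor of RANKL were near the lower limit of the tables. TNFSF11, the RANKL ligand that osteoprotegerin binds, was at 0 in 10 of 12 libraries and reached 0.0300 FPKM. TNFRSF11A, its signaling receptor RANK, measured 0.0308 to 0.288 FPKM, and TNFSF10, the TRAIL ligand, reached 0.187 FPKM. TNFRSF11B was above each of these in every Activin A library. The TRAIL receptors TNFRSF10A and TNFRSF10B had no row under their symbols, so their level is unknown. The adaptor TRAF6 (2.45 to 4.32 FPKM) and the NF-κB subunits NFKB2 (7.61 to 12.2 FPKM) and RELA (14.7 to 26.6 FPKM) were present throughout.

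Of 17 listed genes of the osteoprotegerin and RANK pathway, 13 had a row. Left out of this and the following list counts are genes that passed the filter on low values through 1 group alone, here TNFRSF11A. Of the other 10 tested, 1 was called higher in knock-in than in WT, beside 1.61% of all genes. At an unadjusted p under 0.05 in limma 3 were higher and 0 lower, beside 16.1% and 12.5% of all genes. The gene called was MAP3K14, the NIK kinase of the alternative NF-κB pathway. It measured 2.54, 3.84 and 2.55 FPKM in knock-in and 0.599, 0.617 and 1.14 FPKM in WT, a difference of 1.15 (limma, adjusted p = 0.0204). The call was lost without knock-in library 1 or 2 or WT library 1 or 2 (limma, adjusted p = 0.0557 to 0.0621). The median difference of the 10 was 0.18, against -0.0014 over all genes tested.

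Without TNFSF10, none of the 11 tested genes of that pathway was called between Activin A and SB431542 (limma; 0 higher and 4 lower at an unadjusted p under 0.05), where 8 of 13999 genes (0.0571%) were called higher and 5 (0.0357%) lower. At an unadjusted p under 0.05, 6.07% of all genes were higher and 6.76% lower with Activin A. With the line number as a block in limma, 73 (0.521%) were called higher and 26 (0.186%) lower, and again 0 of the list. MAP3K14 measured 1.80, 1.78 and 1.69 FPKM with Activin A and 3.43, 4.39 and 4.49 FPKM with SB431542. The order of these groups is opposite to that of TNFRSF11B, and the difference was -0.88 (limma, adjusted p = 0.0701, and 0.0341 with the block).

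Of 23 other TNF receptor family genes, 22 had a row and, without TNFRSF13C, 11 were counted between knock-in and WT. At an unadjusted p under 0.05 in limma, 5 were higher and 2 lower, beside 16.1% and 12.5% of all genes. Among them 1 was called higher, beside 1.61% of all genes. TNFRSF12A, the receptor of the cytokine TWEAK, was the gene called, and it rose by 2.13 in knock-in (limma, adjusted p = 0.00242), with 40.1 to 66.2 FPKM against 10.3 to 11.7 FPKM in WT. Its call held in all 6 fits without 1 library. Between Activin A and SB431542 none of 13 tested was called, with or without the block. At an unadjusted p under 0.05 in limma, 0 were higher and 2 lower, beside 6.07% and 6.76% of all genes. TNFRSF12A measured 29.1 to 43.9 FPKM with Activin A against 56.2 to 76.0 FPKM with SB431542.

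The enzymes that precede DBH were nearly absent from the tables. TH, which makes the dopamine precursor DOPA from tyrosine, was at 0 in 10 of 12 libraries and reached 0.0157 FPKM. DDC, which turns DOPA into dopamine, reached 0.171 FPKM, and PNMT, which turns noradrenaline into adrenaline, reached 0.112 FPKM. The noradrenaline transporter SLC6A2 was at 0 in 7 of 12 libraries and reached 0.251 FPKM. The DBH level of 9.60 to 27.2 FPKM with Activin A thus stood beside values under 0.3 FPKM for the other 2 enzymes of the route from tyrosine to noradrenaline.

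Of the genes that supply cofactors to DBH, most but not all were present. The ascorbate transporter SLC23A1 was at 0 in 10 of 12 libraries and reached 0.0204 FPKM, and SLC23A2, the other one, measured 3.68 to 7.71 FPKM. CYB561, the vesicle cytochrome that regenerates ascorbate, measured 4.95 to 10.3 FPKM. The copper importer SLC31A1 measured 26.9 to 40.2 FPKM and the copper pump ATP7A 3.67 to 4.84 FPKM over the 12 libraries. The vesicular monoamine transporters SLC18A1 (0.359 to 0.908 FPKM) and SLC18A2 (0.943 to 2.30 FPKM) were low.

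No gene of the 20 listed for catecholamine synthesis, cofactors, transport and breakdown was called in either comparison. Of 14 tested between knock-in and WT, 4 were higher and 1 lower at an unadjusted p under 0.05 in limma, beside 16.1% and 12.5% of all genes. QDPR, which recycles tetrahydrobiopterin, was 0.83 higher, under the limit of 1 log2 unit (limma, adjusted p = 0.0217), and at an adjusted p of at most 0.05 alone 7.22% of all genes passed. Of 14 tested between Activin A and SB431542, 2 were higher and 0 lower at an unadjusted p under 0.05 in limma, beside 6.07% and 6.76% of all genes. With the block 0 were called. The medians were -0.096 and 0.057, against -0.0014 and -0.0040 over all genes tested. PAM (41.4 to 59.7 FPKM) and MOXD1 (5.65 to 12 FPKM), copper monooxygenases related to DBH, were called in neither comparison, and at an unadjusted p under 0.05 in limma neither passed.

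**Figure D4:**
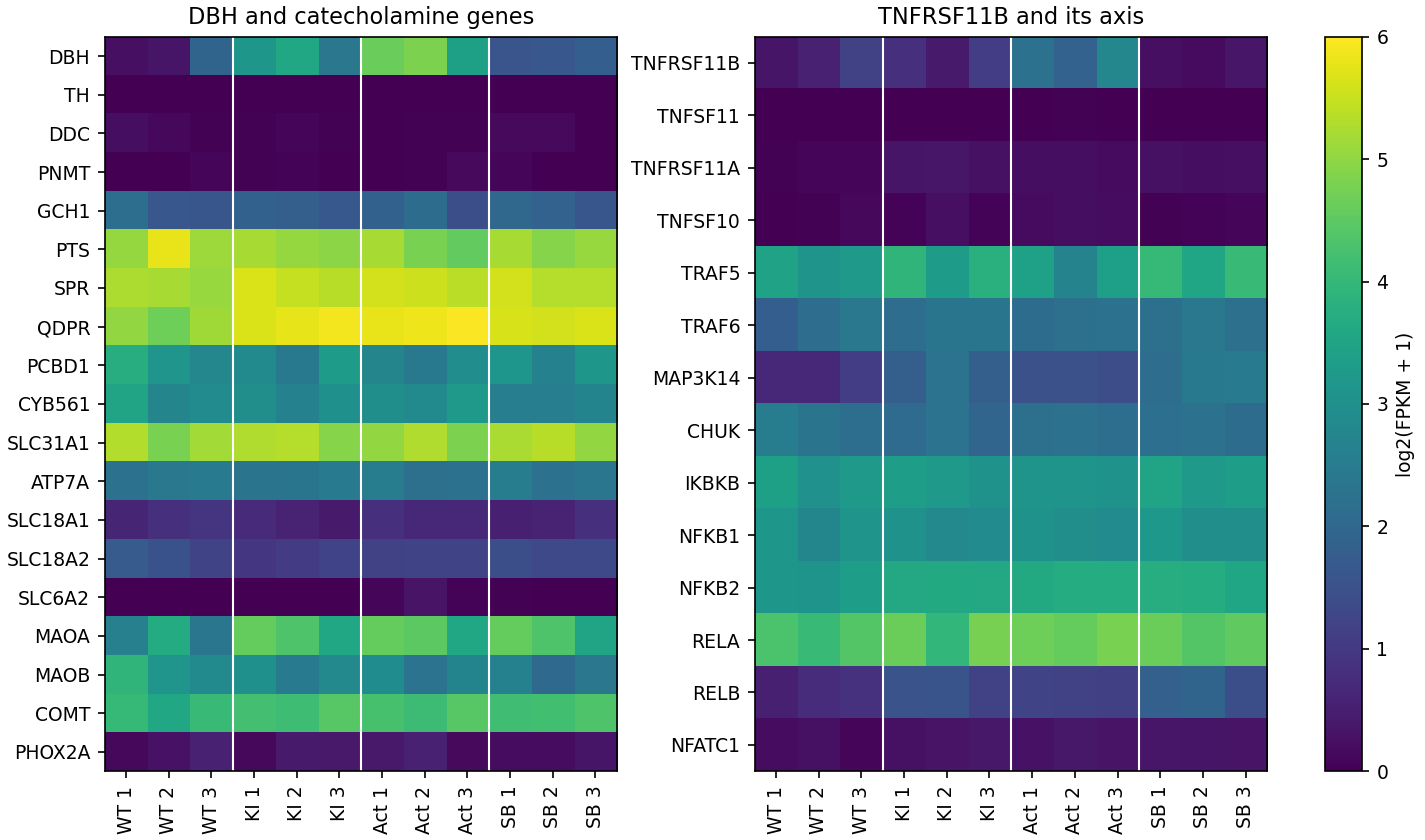
Level as log2(FPKM + 1), by colour, of TNFRSF11B with genes of its pathway and of DBH with genes of catecholamine metabolism (rows) in each of the 12 libraries (columns). DBH and TNFRSF11B change between the Activin A and SB431542 columns, while TNFSF11 and TH stay at or near 0 in every library.

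Genes known to answer to Activin and SMAD2/3 were set beside the members. Of 14 given, 2 of 9 counted rose with Activin A against SB431542 and 0 fell, beside 0.0571% and 0.0357% of all genes. At an unadjusted p under 0.05 in limma, 5 of the 9 were higher and 0 lower, beside 6.07% and 6.76% of all genes. SMAD7, the inhibitory SMAD, rose by 1.80 (limma, adjusted p = 0.0237), from 1.11 to 1.75 FPKM with SB431542 to 6.68 to 8.07 FPKM. LEFTY2, a secreted Nodal inhibitor, was listed at 0 in all 3 SB431542 libraries and at 0.783 to 1.37 FPKM with Activin A, and it passed the filter through the Activin A libraries alone, so it is not counted. NANOG rose by 3.18 (limma, adjusted p = 0.0424), with 109, 195 and 157 FPKM against 11.8, 27.2 and 11.8 FPKM. The NANOG sequence targeted is shared by copies on chromosomes 1 and 5, so its reads may be split between them.

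With the line number as a block, 4 of the 9 were called higher, beside 0.521% of all genes. FST (1.28, limma, adjusted p = 0.0121) and PMEPA1 (1.74, 0.00831) had joined. Without 1 library and without the block, SMAD7 was called in 0 of 6 fits (limma, adjusted p = 0.0538 to 0.148). NANOG was called in 1 of 6, that without SB431542 library 2 (0.0327 to 0.208). Against WT, 3 of 9 were called higher in knock-in, beside 1.61% of all genes: NANOG, TGIF1 and ID1. At an unadjusted p under 0.05 in limma, 8 were higher and 0 lower, beside 16.1% and 12.5% of all genes. The knock-in cells were sorted for tdTomato placed at NANOG, so a NANOG level above WT may follow from that sort. Its call is therefore no separate result to set beside that of DBH. The NANOG call held in 1 of 6 fits without 1 library, that without WT library 3 (limma, adjusted p = 0.0158 to 0.0794). TGIF1 held in all 6, and ID1 was lost without knock-in library 1 or WT library 1 or 2 (0.0585 to 0.0616).

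Cell types that are known to make either product were checked with marker lists. For osteoblasts, RUNX2 reached 0.319 FPKM, and SPP1 and IBSP reached 0.127 and 0.0969 FPKM. The osteoblast sum, nearly all of it ALPL, ran from 7.88 to 19.6 FPKM with Activin A, 10.8 to 46.3 with SB431542, 10.6 to 40.6 in knock-in and 40.3 to 121 in WT. Neither of 2 tested markers, ALPL and RUNX2, was called with Activin A against SB431542 (limma; 0 at an unadjusted p under 0.05). At that unadjusted p, 6.07% of all genes were higher and 6.76% lower. RUNX2 passed the filter against WT through the knock-in libraries alone. ALPL was not called between knock-in and WT (limma; lower at an unadjusted p under 0.05), but was called lower with the block (adjusted p = 0.0367) and without knock-in library 1 (0.048). Knock-in and WT samples share only a number, so the call gained under the block is not read as a stronger effect.

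For sympathoadrenal cells, 8 markers were summed, TH and SLC6A2 among them. GATA3 (0.220 to 1.85 FPKM) and CHGB (0.192 to 0.504 FPKM) were above 0 in all 12 libraries. ISL1 was at 0 in 10 of 12 libraries, HAND2 was at 0 in 6 and reached 0.260 FPKM, and PHOX2A reached 0.473 FPKM. CHGA, the chromogranin A of secretory granules, was the abundant marker, at 24.8 to 49.6 FPKM. Of these 8 alone, none of the 4 tested was called between knock-in and WT, and none of 4 counted between Activin A and SB431542, where HAND2 passed the filter through the SB431542 libraries alone (limma; 0 at an unadjusted p under 0.05 in both), with or without the block. At that unadjusted p, 16.1% of all genes were higher and 12.5% lower in knock-in, and 6.07% and 6.76% with Activin A. The summed level, nearly all of it CHGA, was 29.5 to 49.0 FPKM with Activin A, 27.7 to 32.8 with SB431542, 28.3 to 50.9 in knock-in and 26.1 to 39.0 in WT.

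Fibroblast and feeder markers, summed, took the group order of DBH, and like TNFRSF11B they were highest with Activin A and next in untreated knock-in. The sum of 8 markers was 82.6 to 119 FPKM with Activin A, 63.3 to 92.4 in untreated knock-in, 47.3 to 52.1 with SB431542 and 33.4 to 45.0 in WT. FBLN1, the most abundant of them in all 12 libraries, measured 35.2 to 46.2 FPKM in knock-in and 21.8 to 30.0 FPKM in WT. Of 7 tested, 0 were called between Activin A and SB431542 in limma. At an unadjusted p under 0.05, 3 were higher, beside 6.07% of all genes. COL1A2 and COL3A1 were called higher with the block (limma, adjusted p = 0.0236 and 0.0121), beside 0.521% of all genes. DCN was called higher in knock-in than in WT (limma, adjusted p = 0.0312), a call lost without knock-in library 2 or 3 or WT library 1 or 2 (0.0661 to 0.0882). Against WT, 4 of 7 were higher and 1 lower at an unadjusted p under 0.05 in limma, beside 16.1% and 12.5% of all genes. Over all genes, 1.61% were called higher. COL1A1 went the other way from the sum, with 0.345 to 0.782 FPKM in knock-in and 0.838 to 1.46 FPKM in WT. PDGFRA (up to 0.431 FPKM) and LUM (up to 0.102 FPKM) were low in all libraries. The part of these cells in the levels of TNFRSF11B and DBH was not tested.

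Markers of pericytes, the cell of origin, took another order when summed. Their sum was 43.1 to 48.5 FPKM with Activin A, 57.6 to 59.1 with SB431542, 48.4 to 50.1 in knock-in and 27.7 to 30.2 in WT. Of 6 tested, ACTA2 and PDGFRB were called higher in knock-in than in WT, in all 6 fits without 1 library. Over all genes, 1.61% were called higher in knock-in. ACTA2 was lower with Activin A than with SB431542, by -1.13 (limma, adjusted p = 0.0346), a call lost in each fit without 1 library (0.0902 to 0.161). Between these treatments 1 of the 6 was higher and 2 lower at an unadjusted p under 0.05 in limma. The shares over all genes were 6.07% and 6.76%. Of the 4 pluripotency markers tested, LIN28A and NANOG were called higher in knock-in than in WT and NANOG higher with Activin A than with SB431542. The NANOG call against WT may follow from the sort on its reporter. Calls higher with Activin A made up 0.0571% of all genes. The LIN28A call against WT was lost without knock-in library 1 (limma, adjusted p = 0.0616) or WT library 1 (0.0612). LIN28A was called lower with Activin A with the block, so the pluripotency markers did not all take the order of the members.

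The genes on either side of DBH and TNFRSF11B, 2 on each side, were looked at after the values of the members were known. FAM163B, whose span ends 17650 bp from DBH, measured 1.26, 1.17 and 1.43 FPKM with Activin A and 0.685, 0.603 and 1.07 FPKM in the untreated lines 1, 2 and 3. It measured 0.167, 0.264 and 0.306 FPKM with SB431542, and 0.0579, 0.0381 and 0.0778 FPKM in WT. The 4 groups did not overlap, and Activin A was highest, then untreated knock-in, SB431542 and WT. Treated and untreated levels may have been normalized separately, and the share of genes with all 4 groups apart was not counted. All Activin A libraries were above all SB431542 libraries for 9.19% of genes, and all knock-in above all WT libraries for 19.0%. Against WT, FAM163B passed the filter through the knock-in libraries alone, so no test is given. For Activin A against SB431542 the difference of FAM163B was 0.88 (SE 0.088, limma, adjusted p = 0.0424, and 0.0212 with the block).

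This difference was under 1 log2 unit, so FAM163B was not called. It passed in TPM (1.41, limma, adjusted p = 0.0363) and missed the adjusted p at a pseudocount of 0.1 (2.02, 0.058) or 0.01 (2.38, 0.0751). At an adjusted p of at most 0.05 alone, 0.136% of genes passed between Activin A and SB431542. Without 1 library the adjusted p of FAM163B was 0.0972 to 0.187 (limma, 6 fits). Line 3 of FAM163B was the highest in each of the 3 conditions, whereas line 3 of DBH was the lowest without treatment and with Activin A. With SB431542 the order of the lines was the same for both genes.

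SARDH, on the other side of DBH, was listed at 0.0182 FPKM or less in every library. ADAMTSL2 was listed at 0.157 FPKM or less, and VAV2 ranged from 14.4 to 20.1 FPKM with a difference of 0.068 between knock-in and WT (limma, adjusted p = 0.718). Around TNFRSF11B, the 4 genes MAL2, COLEC10, SAMD12 and EXT1 were called in neither comparison. EXT1, a heparan sulfate polymerase, measured 22.8 to 35.9 FPKM, well above TNFRSF11B, with a difference of 0.13 between Activin A and SB431542 (limma, adjusted p = 0.655).

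**Figure D5:**
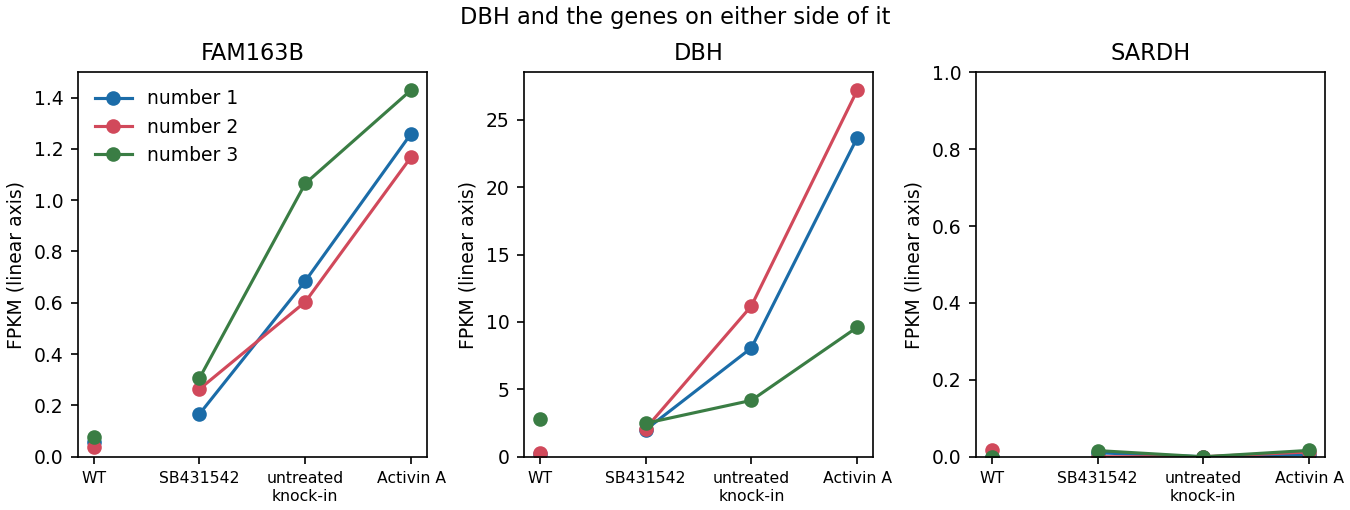
FPKM on linear axes of FAM163B, DBH and SARDH, neighbours on the chromosome, in each of the 12 libraries by group; joined points share a number across the knock-in conditions. FAM163B and DBH are highest with Activin A, at up to 1.43 and 27.2 FPKM, and SARDH stays at 0.0182 FPKM or less.

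Genes with a pattern like that of a member were named by the lower of its 2 Pearson correlations, over the 6 knock-in and WT libraries and over the 6 Activin A and SB431542 libraries, on log2(FPKM + 1). These are descriptions over libraries that fall into 2 groups in each table and share their line, and 12395 genes with a symbol were compared. For DBH the nearest were CXXC5 (0.975), AKAP12 (0.967), MEST (0.966), THOP1 (0.958) and TXNDC5 (0.94), and 18 genes reached 0.9. MEST, an imprinted gene, measured 67.5, 75.8 and 33.2 FPKM in the untreated lines. With Activin A its lines 1, 2 and 3 measured 82.9, 82.7 and 59.9 FPKM. It shares with DBH the lowest value in line 3 of both groups and, at 27.4 FPKM against 11.7 and 17.6 FPKM, the high WT library 3. With SB431542 lines 1, 2 and 3 of MEST measured 46.7, 36.2 and 45.4 FPKM. There line 3 of MEST lay above its untreated level, whereas line 3 of DBH lay below.

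For TNFRSF11B the nearest genes were NFIC (0.917), RAB3A (0.904), PPP2R5D (0.9), C12orf57 (0.894) and ABR (0.889), and 3 genes reached 0.9. NFIC, a transcription factor of the nuclear factor I family, measured 3.6, 3.13 and 4.14 FPKM with Activin A and 1.78, 1.85 and 2.70 FPKM with SB431542, a far narrower range than TNFRSF11B. The correlation of DBH with TNFRSF11B was 0.32 over the knock-in and WT libraries and 0.84 over the treated libraries. Both members were picked as higher with Activin A than with SB431542. The second value therefore follows from the choice, and no shared pattern is read from it. With Spearman's rho in place of Pearson's r, 2 of the 5 genes named for TNFRSF11B and 1 of the 5 named for DBH stayed among the nearest 50. With a pseudocount of 0.1 all 5 of each stayed there.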

How the data were processed

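Poly(A)-selected RNA was sequenced from WT, knock-in, Activin A and SB431542 cells, 3 libraries each. The authors aligned reads to the pig genome and deposited FPKM per gene in 2 tables of 6 libraries; the submitters' processing notes name bcl2fastq 2.17.1.14, HISAT2 2.0.4, StringTie 1.3.3, featureCounts 1.6.4 and DESeq2. Groups were taken from the sample labels. The tables were tested separately, and values set across them are levels without a test.

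The 2 members and all lists were chosen with earlier results of these data known, and genes were named by fixed lists, those called and the 5 most like each member. Genes at 0.1 FPKM or more in at least 3 of 6 libraries were kept, which both members passed everywhere. A pseudocount of 1 was added before log2, and limma 3.58.1 with a variance trend was run in R 4.3.3 (data.table, version 1.17.8). The p-values were Benjamini-Hochberg adjusted over all genes tested. The fit was tested on simulated data, and the outcome of that test is not reported here. Symbols were found for 20951 IDs, 870 of them from a separate gene name table. Plots were made in Python 3.11.15 with matplotlib 3.10.9.

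Same-numbered libraries were checked for pairing by the correlation of their deviations from group means. It was 0.395 to 0.585 for Activin A and SB431542, 0.501 to 0.658 for knock-in and Activin A and 0.512 to 0.627 for knock-in and SB431542, where the pairing is read from these correlations, since the study names 3 numbered knock-in lines but does not tie the treated libraries to them. It was -0.0178 to 0.0934 for knock-in and WT. Alternatives were other pseudocounts and filters, TPM, median-ratio scaling, no variance trend, the replicate block and leaving out each library. Relative depth was taken from low values (under 0.3 FPKM), as the ratio between libraries that occurred most often. No sequences were printed, and 2 further markers fixed for sympathoadrenal cells, beside the 8 given, and 1 further Activin target, beside the 14 given, are not reported here.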

Additional observations from a re-analysis of the deposited data

How the results depend on the processing

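DBH kept its direction between knock-in and WT in all 14 alternatives and its call in 6 of them. The call was lost with a pseudocount of 0.1 (3.46, limma, adjusted p = 0.0501) or 0.01 (3.77, 0.0573), without a filter on low values (2.22, 0.0831) and with the replicate number as a block (2.22, 0.0908). Knock-in and WT samples share only a number, so a call lost under the block is not read as a weaker effect. The block called 232 genes. Without 1 library the difference ran from 1.92 to 2.77. TNFRSF11B was called in 0 of 13 alternatives, and without 1 library it ran from -0.0569 to 0.353, turning sign without knock-in library 3 (-0.0359) and WT library 1 (-0.0569). It had no value with a filter of 1 FPKM.

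The distances of TNFRSF11B grew with a pseudocount of 0.1, a pseudocount of 0.01 and TPM, scales on which the added constant weighs less. Activin A minus SB431542 was 2.05, and 3.78, 4.30 and 2.90 on these. Activin A minus untreated was 1.52, and 2.34, 2.5 and 1.98. SB431542 minus untreated was -0.53, and -1.44, -1.80 and -0.92. Without 1 line the 3 distances ran from 1.86 to 2.22, 1.43 to 1.57 and -0.663 to -0.43. Those of DBH moved by less than the spread between lines, and without 1 line ran from 2.32 to 3.12, 1.12 to 1.33 and -1.79 to -1.09.

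Between knock-in and WT 324 genes were called, 538 and 501 with the pseudocounts of 0.1 and 0.01, 199 without a filter and 145 to 446 without 1 library. Between Activin A and SB431542 13 were called, 8 with a pseudocount of 0.01, 5 without a filter, 5 with a filter of 1 FPKM, 7 without a variance trend, 99 with the replicate block, and 0 to 5 without 1 library. It was 0 without Activin A library 2, SB431542 library 1 or SB431542 library 3, where 1481, 1325 and 1697 genes had an unadjusted limma p under 0.05. The cause of these shifts was not tested.

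With 3 libraries a group an exact permutation test cannot go below p = 0.1. Absolute depth is unknown, so no counting error can be given for values under 0.3 FPKM such as TNFRSF11B with SB431542.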

Other observations

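The 19 genes that lay at least 1 log2 unit above untreated knock-in with Activin A in all 3 lines were listed after their values were seen, and no test was made of them, since the tables may have been normalized separately. Beside TNFRSF11B and DBH, whose Activin A libraries had been used to pick them, 14 had a symbol. HES1 (1.69 in its least line), HEY1 (1.17) and HES5 (1.08) are known as targets of Notch signaling. ID2 (1.31), ID1 (1.15), SMAD7 (1.20) and NOG (1.04) are known to answer to BMP or TGF-beta signaling or to restrain it. FOS (1.22), EGR1 (1.19) and EGR2 (1.12) are immediate early genes. The others were GATA2 (1.43), BCL2L1 (1.20), SOST (1.05) and CCN2 (1.00). SOST, like TNFRSF11B, encodes a secreted protein known from bone. With a pseudocount of 0.1 the list held 33 genes, after conversion to TPM 24 and with median-ratio scaling over the 12 libraries 19, and both members were on each, alternatives that were chosen after seeing the data.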
